A study of Saccharomyces cerevisiae with 8 samples.

Results

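A set of 10 genes of budding yeast, Saccharomyces cerevisiae, was followed through 10 min of glucose refeeding in a wild-type strain and in a strain without STB3. They were grouped as stationary-phase and respiratory-growth genes. They are the respiratory-growth genes RGI1 (YER067W) and RGI2 (YIL057C), the stationary-phase genes SPG1 (YGR236C), SPG4 (YMR107W) and SPG5 (YMR191W), the desiccation-tolerance genes SIP18 (YMR175W) and GRE1 (YPL223C), the repressor gene XBP1 (YIL101C), the cell-wall glycoprotein gene YGP1 (YNL160W) and MPF1 (YNL144C). These 10 genes, of 5656 with a probe set of their own, were selected by gene symbol in the array annotation, and some of them were put on the list for their large fall after glucose in these same arrays. Their glucose responses are therefore given as a description, with the count of calls printed once for reference and no p-value, and tests are given for the differences between strains. Each gene had 1 probe set that named no other gene, and all 10 passed the filter on low signals.

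The study measured total RNA on Affymetrix arrays in 4 groups of 2 arrays, called replicates A and B. BY4742, a haploid laboratory strain of mating type alpha that lacks HIS3, LEU2, LYS2 and URA3 function, was the wild type, and the other strain, stb3-null, lacks STB3. Each strain was taken after 3 days of culture in YPD, a rich medium, or 10 min after such a culture was given 2% glucose. The labels do not name the parent of stb3-null or say how the deletion was made, how many clones were used or whether replicates were separate cultures, so the spread between replicates may be technical.

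Yeast ferments glucose first and turns to respiration when it runs out, and after some days in rich medium most cells stop dividing and enter stationary phase. During that passage the protein kinases Snf1 and Rim15 are active and protein kinase A and TOR are not, and stress-protective and respiratory genes are induced. Glucose given to such cells activates protein kinase A within minutes and starts glucose repression. Stb3 is a protein that binds a promoter element common among genes for ribosome synthesis.

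The labels were checked first. STB3 lay between 7.62 and 9.23 on the log2 signal scale on the 4 wild-type arrays and between 2.50 and 3.30 on the 4 stb3-null arrays. URA3, LYS2 and LEU2 reached at most 4.62, 3.78 and 6.18 on any array of either strain. The alpha-cell genes MF(ALPHA)1 and STE3 lay at 11.09 or more and 8.12 or more, while the a-cell genes STE2, BAR1, MFA1 and MFA2 reached at most 6.01, 5.63, 7.81 and 7.13. The wild-type replicates lay further apart than those of stb3-null: over the 5343 genes tested, the median distance between replicates A and B was 0.35 at 3 days and 0.30 after glucose in wild type, against 0.19 and 0.16 in stb3-null. For the 10 genes these median distances were 0.545 and 0.58 in wild type and 0.13 and 0.24 in stb3-null.

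The 10 genes differed in their behaviour after glucose, as the plot of signals by array shows. RGI1, RGI2, SPG1, XBP1 and MPF1 dropped steeply in both strains. SPG4 dropped less, and in wild type SPG5, SIP18 and GRE1 had overlapping signals before and 10 min after glucose while YGP1 was higher after it. In wild type 6 of the 10 genes were called lower and 1 higher at an adjusted p below 0.05 (limma with Benjamini-Hochberg adjustment), while 49.9% of all genes were called, 17.6% lower and 32.3% higher. In stb3-null 5 were called lower and 1 higher, against 39.5% of all genes, 11.6% lower and 28% higher. The gene called higher was YGP1 in wild type but SPG5 in stb3-null, where YGP1 was not called. SPG5 stood at the threshold, and its call was lost with median centring, without the filter on low signals and with a replicate block. It was also lost after scaling to a common trimmed mean or after quantile normalisation. The YGP1 call in wild type held with median centring but was lost after either of those other scalings. Array weights, or a fit of the wild-type groups alone, also removed the YGP1 call. Both calls were lost in some fits with 1 array left out. With quantile normalisation the counts were 9 lower and 0 higher in wild type, where SPG5, SIP18 and GRE1 joined the genes called lower. In stb3-null they were 7 lower and 0 higher. Of all 5343 genes tested, that scaling called 1255 lower and 1398 higher in wild type, and 816 lower and 1014 higher in stb3-null. Because the list was made partly from these responses, the counts are not evidence about the genes as a class. On whole-culture RNA, fewer cells of a kind and less RNA per cell cannot be told apart.

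**Figure D1:**
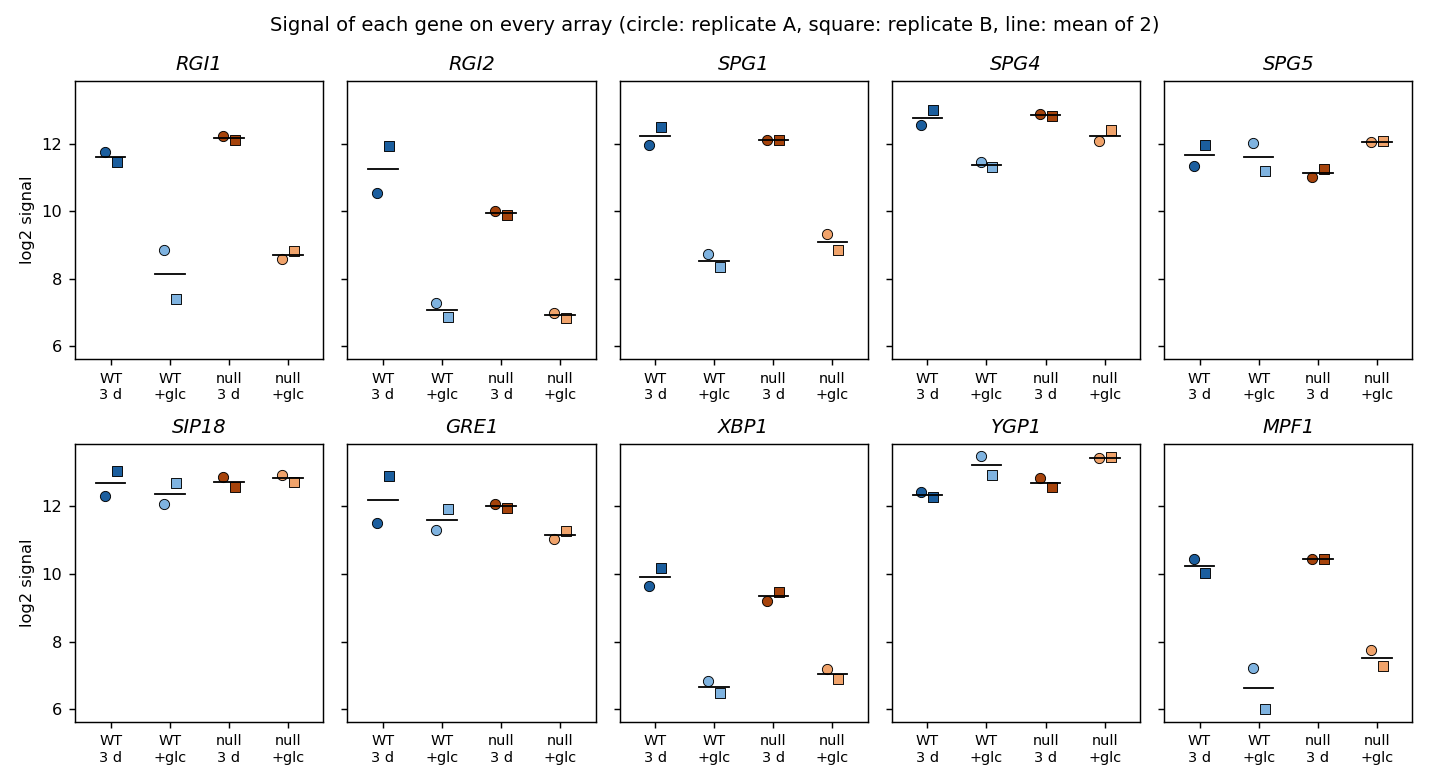
Log2 signal (vertical axis) of each of the 10 genes on the 8 arrays, by group: wild type (WT, blue) and stb3-null (null, orange) at 3 days and 10 min after glucose (+glc). Circles are replicate A, squares replicate B and lines the mean of 2 arrays. RGI1, RGI2, SPG1, XBP1 and MPF1 drop in both strains, whereas SIP18 stays between 12.06 and 13.06.

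Among the 10 genes the steepest drop was that of RGI2 in wild type and that of RGI1 in stb3-null. RGI1 and RGI2 are paralogs that encode small proteins involved in energy metabolism during respiratory growth. The RGI2 signal was 10.55 and 11.93 in wild type at 3 days (replicates A and B, in this order throughout) and 7.29 and 6.87 after glucose. In stb3-null it was 10.02 and 9.90 at 3 days and 6.99 and 6.84 after glucose. No array after glucose overlapped one at 3 days, and wild-type replicate B stood highest of all before glucose. The difference of means was -4.16 (SE 0.38) in wild type, which is 17.9-fold lower and the largest drop of the 5343 genes tested. In stb3-null it was -3.05 (SE 0.38), 8.25-fold lower and the fourth largest.

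RGI1 lay at 11.76 and 11.46 in wild type at 3 days and at 8.86 and 7.40 after glucose. In stb3-null the values were 12.24 and 12.10 at 3 days and 8.59 and 8.82 after glucose. The 2 times did not overlap in either strain, but the wild-type arrays after glucose were 1.46 apart. RGI1 differed by -3.48 (SE 0.41) in wild type and by -3.47 (SE 0.41) in stb3-null, which are drops of 11.2-fold and 11-fold. By these means RGI2 stood first and RGI1 in place 7 among the drops in wild type, and RGI1 in place 2 and RGI2 in place 4 in stb3-null. With other processing or 1 array left out, the wild-type ranges overlapped, at -4.85 to -3.47 for RGI2 and -4.21 to -2.75 for RGI1. The order of the paralogs was not tested.

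SPG1, SPG4 and SPG5 were named for stationary-phase growth. Spg1 and Spg4 are needed for survival of stationary-phase cells at high temperature, and Spg5 assists assembly of the proteasome in quiescent cells. SPG1 was at 11.95 and 12.50 in wild type at 3 days and at 8.74 and 8.34 after glucose, and at 12.11 and 12.12 in stb3-null at 3 days and 9.33 and 8.84 after glucose. The 2 times lay far apart in both strains, and after glucose both stb3-null arrays were above both wild-type arrays. The difference after glucose was -3.69 (SE 0.29) in wild type, 12.9-fold lower, and -3.03 (SE 0.29) in stb3-null, 8.17-fold lower.

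SPG4 showed a smaller difference. Its signal went from 12.55 and 12.99 to 11.45 and 11.31 in wild type, and from 12.88 and 12.82 to 12.08 and 12.40 in stb3-null. The times did not overlap in either strain, and all 4 pairings of arrays pointed downward in both. The difference was -1.39 (SE 0.27) in wild type, 2.62-fold lower, and -0.61 (SE 0.27) in stb3-null, 1.53-fold lower. Over 18 repeats that each changed a processing step or omitted 1 array, the stb3-null difference ran from -1.42, with quantile normalisation, to -0.45.

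SPG5 had no settled direction in wild type. It lay at 11.35 and 11.95 in wild type at 3 days and at 12.01 and 11.19 after glucose, with complete overlap (difference -0.05, SE 0.33). In stb3-null it lay at 11.01 and 11.25 at 3 days and at 12.05 and 12.07 after glucose, with no overlap (difference 0.93, SE 0.33, 1.91-fold higher). Over the 18 repeats the wild-type difference ran from -0.81 to 0.36 and that of stb3-null from 0.19 to 1.05, and both lowest values came with quantile normalisation.

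XBP1 encodes a transcriptional repressor with a DNA-binding domain related to those of Swi4 and Mbp1, which is induced by stress and starvation and represses cyclin and other genes in quiescent cells. Its signal was 9.63 and 10.17 in wild type at 3 days and 6.83 and 6.48 after glucose. In stb3-null it was 9.20 and 9.48 at 3 days and 7.20 and 6.90 after glucose. Both stb3-null arrays were below both wild-type arrays before glucose and above them after it. The difference was -3.25 (SE 0.25) in wild type, 9.48-fold lower, and -2.29 (SE 0.25) in stb3-null, 4.89-fold lower.

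MPF1 had signals of 10.43 and 10.03 in wild type at 3 days and 7.22 and 6.0 after glucose, the last being the lowest value of any of the 10 genes. In stb3-null it had 10.43 on both arrays at 3 days and 7.74 and 7.29 after glucose. Before glucose the strains overlapped, and after glucose both stb3-null arrays were above both wild-type arrays. The difference was -3.62 (SE 0.36) in wild type, 12.3-fold lower, and -2.92 (SE 0.36) in stb3-null, 7.54-fold lower.

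SIP18 and GRE1 are paralogs that encode hydrophilins, small hydrophilic proteins that protect cells on drying. SIP18 was at 12.31 and 13.06 in wild type at 3 days and at 12.06 and 12.68 after glucose, and at 12.88 and 12.57 in stb3-null at 3 days and 12.93 and 12.72 after glucose. The times overlapped in both strains, with differences of -0.32 (SE 0.34) in wild type and 0.10 (SE 0.34) in stb3-null. GRE1 was at 11.51 and 12.89 in wild type at 3 days and at 11.29 and 11.92 after glucose, where the groups overlapped (difference -0.60, SE 0.42). In stb3-null it was at 12.07 and 11.96 at 3 days and at 11.03 and 11.28 after glucose, where they did not (difference -0.86, SE 0.42). Replicate B of wild type exceeded replicate A for both genes at both times, by 0.62 to 1.38.

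YGP1, which encodes a secreted cell-wall glycoprotein made on nutrient limitation, was the one gene higher after glucose in all 4 pairings in both strains. It was at 12.43 and 12.27 in wild type at 3 days and at 13.48 and 12.94 after glucose. In stb3-null it was at 12.84 and 12.56 at 3 days and at 13.43 and 13.45 after glucose. The difference was 0.86 (SE 0.28, 1.82-fold) in wild type and 0.74 (SE 0.28, 1.67-fold) in stb3-null. Scaling bears on this gene: with quantile normalisation the differences were 0.11 in wild type and 0.02 in stb3-null. The median of all genes moved from 0.22 to 0.02 in wild type and from 0.26 to 0.04 in stb3-null. SPG4 also moved with that scaling, from -1.39 to -2.05 in wild type and from -0.61 to -1.42 in stb3-null.

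The deposited values carry no stated scaling between arrays, and with a common trimmed mean the median change of all genes was -0.26 in wild type and -0.24 in stb3-null. Over all genes the split of higher and lower calls in wild type was 1728 to 940 as deposited, 1398 to 1255 with quantile normalisation and 1003 to 1783 with a common trimmed mean. In stb3-null it was 1494 to 619, 1014 to 816 and 677 to 1475. Over the 18 repeats the differences of RGI1, RGI2, SPG1, XBP1 and MPF1 lay between -4.85 (RGI2) and -2.69 (XBP1) in wild type and between -3.96 (RGI1) and -1.90 (XBP1) in stb3-null. SIP18 and GRE1 ranged from -1.07 to 0.06 and from -1.37 to 0.10 in wild type, so that, as for SPG5, no direction is given for them there.

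**Figure D2:**
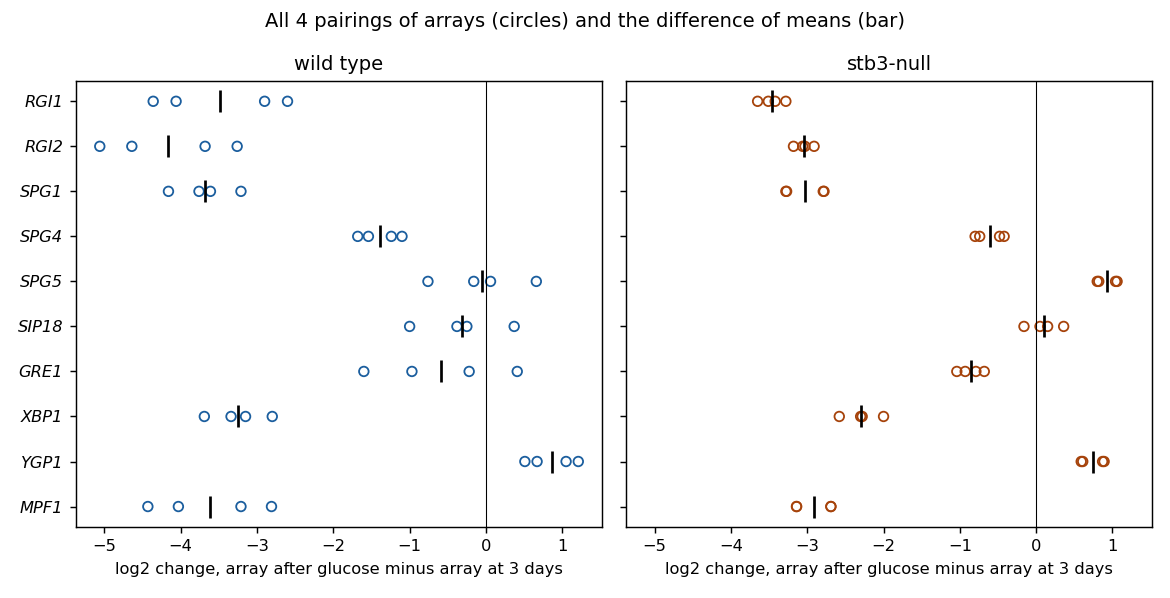
Log2 change after glucose (horizontal axis) for each of the 10 genes, in wild type on the left and stb3-null on the right. Circles are the 4 pairings of an array after glucose with one at 3 days, and bars the difference of group means. The wild-type pairings of RGI2 run from -5.06 to -3.26 and those of stb3-null from -3.18 to -2.91.

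Expressed per minute, the drops were fast. A log2 change of -4.16 in 10 min is an average of 1 halving of the RGI2 signal every 2.40 min in wild type, and that of stb3-null 1 every 3.28 min. The corresponding times for SPG1, MPF1, RGI1 and XBP1 were 2.71, 2.76, 2.87 and 3.08 min in wild type and 3.30, 3.43, 2.89 and 4.37 min in stb3-null. SPG4 took 7.19 min in wild type. Over the 18 repeats, the RGI2 time ran from 2.06 to 2.88 min in wild type and from 2.82 to 3.88 min in stb3-null. These are averages over a single interval, and synthesis and decay of the RNA cannot be told apart with 1 time point.

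The wild-type drop was larger between the replicate B arrays than between the replicate A arrays for each of the genes that dropped. The labels do not say whether arrays of the same letter belong together, so these differences are a description. The A and B differences were -3.26 and -5.06 for RGI2, -2.90 and -4.06 for RGI1, -3.21 and -4.16 for SPG1, -2.80 and -3.69 for XBP1, -3.21 and -4.03 for MPF1 and -1.10 and -1.68 for SPG4. In stb3-null the A and B differences lay closer together, the furthest apart being -2.00 and -2.58 for XBP1. At 3 days 7 of the 10 genes were higher in wild-type replicate B, and after glucose 8 of 10 were higher in replicate A, whereas over all genes replicate B was higher in 53.9% and 50.8%. The median over the 10 genes in wild type was -2.32 with all arrays. Leaving out replicate A or B of the 3-day pair gave -2.47 or -2.07, and leaving out A or B of the glucose pair gave -2.44 or -2.04.

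**Figure D3:**
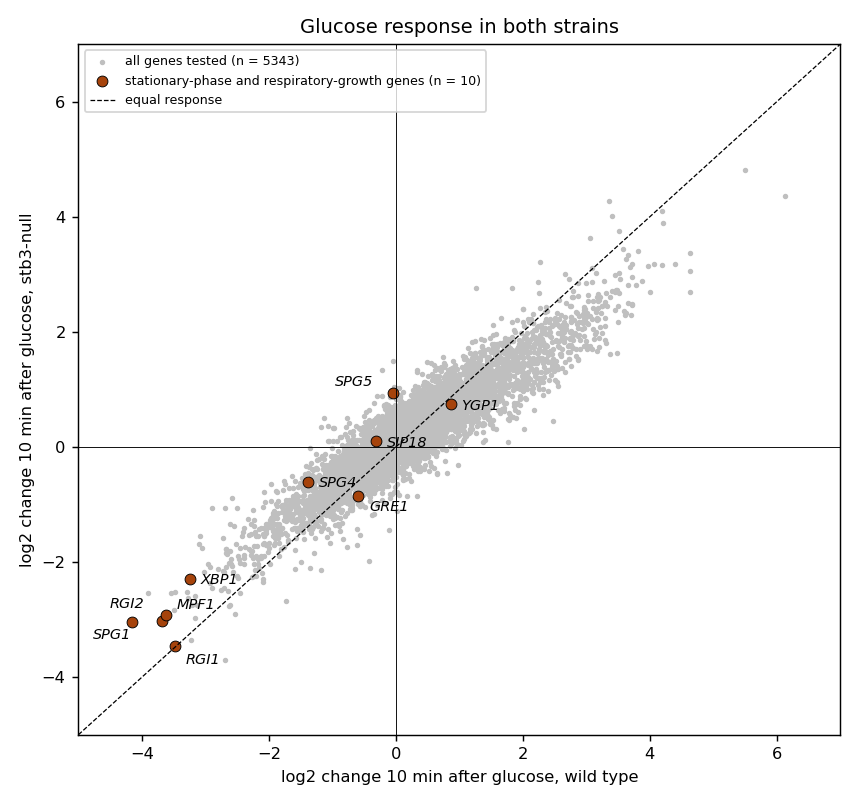
Log2 change 10 min after glucose in wild type (horizontal axis) and stb3-null (vertical axis) for all 5343 genes tested (grey) and the 10 genes (orange, named); the dashed line marks equal responses. RGI1 lies on the line, and RGI2, SPG1, MPF1 and XBP1 lie above it at the lower end of all genes.

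Whether loss of STB3 altered these genes was asked by comparing the strains at each time. The genes were not chosen by this contrast, but it uses the same arrays as the glucose responses. Those responses helped to choose some of the genes, so the contrast is not independent of that choice. At 3 days none of the 10 genes passed (limma, adjusted p from 0.435 to 0.99), and 0.0374% of all genes did, namely STB3 itself and ATC1. At an unadjusted p under 0.05, RGI2 and XBP1 were among 466 genes. The difference, stb3-null minus wild type, was -1.28 for RGI2 (95% confidence interval -2.13 to -0.43, adjusted p = 0.435, limma), and both stb3-null arrays lay below both wild-type arrays. For XBP1 it was -0.56 (95% confidence interval -1.11 to -0.01), again with no overlap. A lack of overlap carries little weight here, as an exact permutation test of 2 against 2 arrays cannot go below 0.333. The share of all genes without overlap at a single time was not counted. The other 8 genes differed by -0.52 (SPG5) to 0.56 (RGI1), and their intervals all held 0. The median of the 10 genes was -0.04, beside 0.03 for all genes.

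The RGI2 difference depended on single wild-type arrays. Without wild type 3 days replicate A it was -1.97 and passed (limma, adjusted p = 0.0162), in a fit that called 168 genes. Without replicate B it was -0.59 and did not pass. RGI1, the paralog, lay on the other side, with stb3-null higher than wild type by 0.56 (95% confidence interval -0.35 to 1.47).

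After glucose none of the 10 genes passed either (limma, adjusted p from 0.389 to 0.918), and 0.0187% of all genes did, which was STB3 alone. Stb3-null had the higher mean for 8 of the 10, with a median difference of 0.46 beside 0.04 for all genes. The share of all genes with the higher mean in stb3-null was not counted. Several of the 10 genes moved together over the arrays, so these 8 are not separate observations. Lists of related genes described further on had medians of 0.44 (other stationary-phase genes), 0.48 (hydrophilins and osmotic stress), 0.24 (respiratory regulators) and 0.20 (regulators of entry). The list of G1 cyclin and Start genes lay on the other side, at -0.07. These list medians also moved with other processing or 1 array left out. They ran from 0.15 to 0.72, 0.11 to 0.80, 0.055 to 0.42 and 0.135 to 0.25 in the order given, and from -0.19 to 0.28 for the G1 list. HSP12 and CTT1 are in both the stationary-phase and the hydrophilin list. SPG4 and MPF1 were among 516 genes at an unadjusted p under 0.05. SPG4 was higher by 0.86 (95% confidence interval 0.25 to 1.47, adjusted p = 0.389, limma) and MPF1 by 0.91 (95% confidence interval 0.10 to 1.72, adjusted p = 0.476, limma), and neither overlapped between strains. The limit on reading a lack of overlap, given for 3 days, holds here too. SPG1 was higher by 0.55 (95% confidence interval -0.11 to 1.20), XBP1 by 0.40 (-0.16 to 0.95) and RGI1 by 0.58 (-0.34 to 1.49), and GRE1 was lower, at -0.45 (-1.40 to 0.50).

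That median also moved with single arrays. Leaving out replicate B of wild type after glucose gave 0.14, and leaving out replicate A gave 0.66. In the latter fit MPF1 passed at 1.52 (limma, adjusted p = 0.0478), in a fit that called 56 genes. A non-passing difference does not show that the strains were alike, and with 2 arrays a group the intervals above allow differences of more than 1 on the log2 scale for most of these genes.

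**Figure D4:**
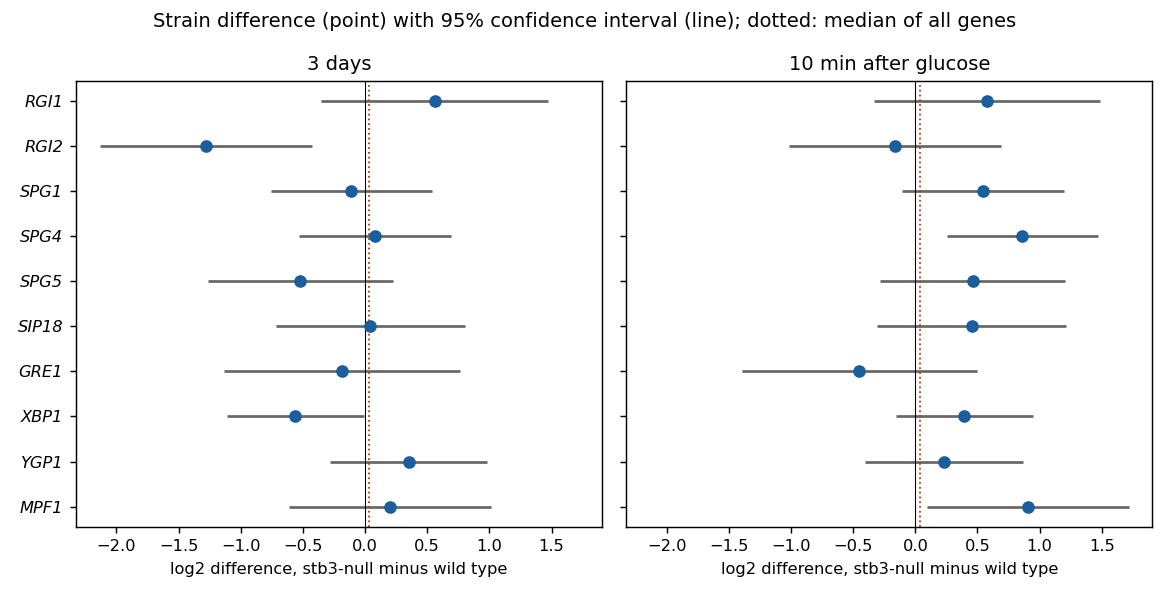
Log2 difference between strains, stb3-null minus wild type (horizontal axis), for the 10 genes at 3 days on the left and 10 min after glucose on the right. Points are differences of means of 2 arrays, lines their 95% confidence intervals and the dotted line the median of all genes. At 3 days the intervals of RGI2 and XBP1 lie below 0, and after glucose those of SPG4 and MPF1 lie above it.

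The difference between both glucose responses equals the strain difference after glucose minus that at 3 days, and because it contains the responses that helped to choose the genes it is given without a test. Stb3-null minus wild type, it was 1.12 (SE 0.54) for RGI2, 0.98 (SE 0.47) for SPG5, 0.96 (SE 0.35) for XBP1, 0.78 (SE 0.38) for SPG4, 0.71 (SE 0.51) for MPF1 and 0.66 (SE 0.41) for SPG1. RGI1 had 0.02 (SE 0.58), SIP18 0.42 (SE 0.48), YGP1 -0.12 (SE 0.40) and GRE1 -0.27 (SE 0.60). The fit called 0% of all genes, these 10 included, and 370 genes had an unadjusted p under 0.05. With each setting and each array left out, the median of the 10 genes lay between 0.40 and 0.86.

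Other genes of the same physiology were read from 5 lists that hold none of the 10. In what follows, log2 changes are given for wild type first and stb3-null second. The counts of genes that fell or rose in each list stand against 17.6% of all genes lower and 32.3% higher in wild type, and 11.6% lower and 28% higher in stb3-null. Of 19 further stationary-phase and starvation genes, 5 fell and none rose in wild type (median -0.48, beside 0.22 for all genes), and 3 fell and none rose in stb3-null (median -0.09, beside 0.26). FMP45, for a membrane protein, fell (-2.62 and -2.74), as did GAC1, for a regulatory subunit of the glycogen-synthase phosphatase (-2.32 and -1.53), and SSA3, an Hsp70 gene (-1.41 and -1.05). The small heat-shock gene HSP26 was at -0.05 and 0.10, and SPS100, the paralog of YGP1, at -0.78 and -0.70, and neither passed. The number lower in this list ran from 3 to 11 in wild type and from 2 to 8 in stb3-null under other settings. Up to 3 of its genes were called higher in some of them.

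Genes that control entry into stationary phase moved in both directions. Of 16 measured, 7 fell and 1 rose in wild type (median -0.40) and 6 fell and 2 rose in stb3-null (median -0.02). GIS1, a transcription factor gene acting below Rim15, fell (-2.07 and -1.42), as did IGO2, an endosulfine gene of the same pathway (-1.95 and -1.24). TPK3, for a catalytic subunit of protein kinase A, rose by 0.95 in wild type, and RIM15 and the stress factor gene MSN2 rose by 0.87 and 0.72 in stb3-null. TPK2 and BCY1, for another catalytic subunit and the regulatory subunit of protein kinase A, also fell (TPK2 -1.51 and -1.27, BCY1 -1.39 and -1.12). With a common trimmed mean none of these genes was called higher in either strain.

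Regulators of respiratory growth had 5 falls and 2 rises among 15 genes in wild type (median -0.52), and 1 fall and 2 rises in stb3-null (median -0.18). The activator gene HAP4 fell in both strains (-2.17 and -1.96). CAT8, another activator gene, fell in wild type (-2.70) and was at -1.06 in stb3-null without passing (limma, adjusted p = 0.0746). The repressor genes MIG2 and MIG3 rose in both (MIG2 2.67 and 2.26, MIG3 1.58 and 1.96). Between 3 and 12 of the 15 were called lower in wild type under other settings, and between 0 and 7 in stb3-null.

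The hydrophilin and osmotic-stress list held 12 genes, of which 5 fell and 2 rose in wild type (median -0.29) and 3 fell and 3 rose in stb3-null (median -0.05). The hydrophilin gene STF2 fell (-2.43 and -1.56), as did the aldehyde dehydrogenase gene ALD3 (-1.41 and -1.08). GPP2, for a glycerol phosphatase, rose (3.65 and 3.34), as did YNL190W (0.96 and 0.90). GRE3 fell in both strains (-1.33 and -1.43), and GRE2 rose in stb3-null by 1.24. Of 7 measured G1 cyclin and Start genes, CLN2 fell in both strains (-1.0 and -1.12) and MBP1 in wild type (-0.75), and none rose. CLN1, a cyclin gene that Xbp1 is known to repress, was at -0.81 and -0.72 without passing. No gene of these 5 lists passed in either strain comparison.

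**Figure D5:**
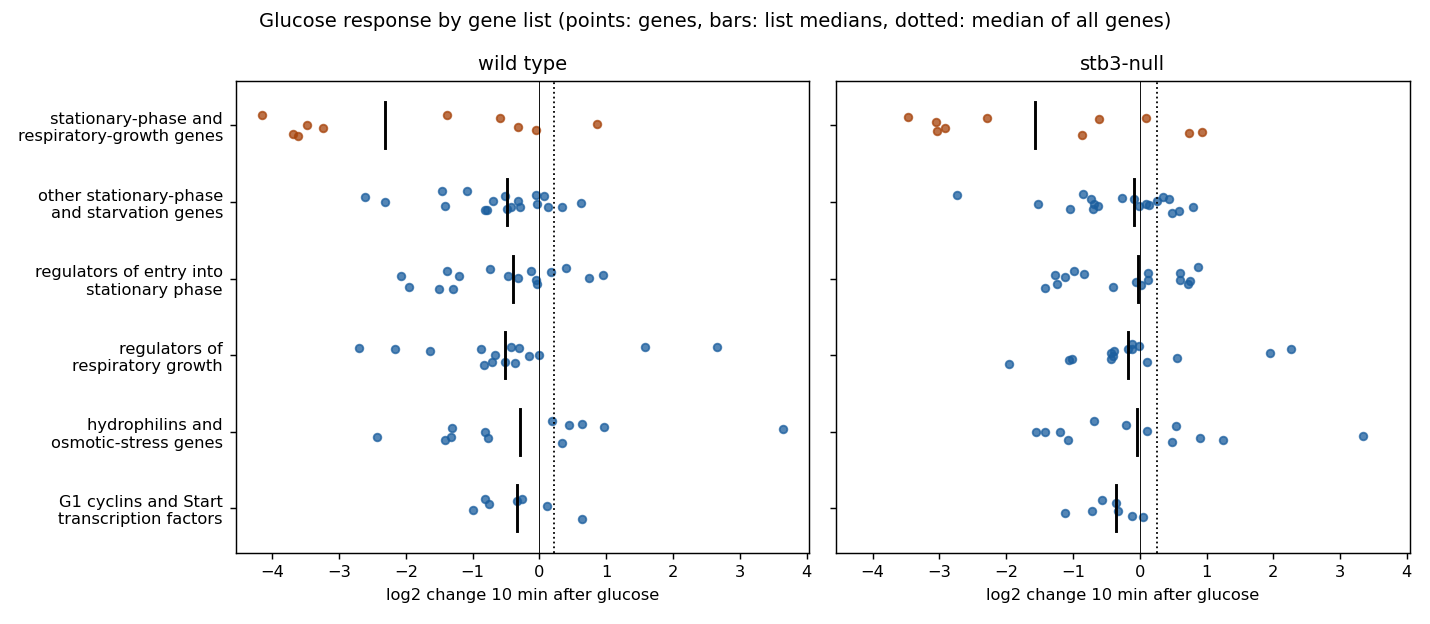
Log2 change 10 min after glucose (horizontal axis) in wild type on the left and stb3-null on the right, for the 10 genes (orange) and 5 lists of related genes (blue). Each point is a gene, the bars are medians and the dotted line is the median of all genes. The list medians lie between -0.52 and -0.02, above those of the 10 genes at -2.32 and -1.58. Some of the 10 genes were picked for their large fall in these arrays, so this gap is no evidence about them as a class.

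The genes whose signals over the 8 arrays were most like those of single members were sought by Pearson correlation among all tested genes. This is a description, since any gene that drops after glucose correlates with any other. RGI1 was most like YPL247C (r = 0.996), ISF1 (0.994) and FUN19 (0.992), and RGI2 most like GOS1 (0.998), GTO3 (0.992) and ATG3 (0.991). XBP1 was most like VHS2 (0.998), MLG1 (0.998) and UGX2 (0.997), and YGP1 most like YRA1 (0.99), IDH2 (0.988) and YDL085C-A (0.985). SIP18 reached 0.935 with FMP23, 0.918 with TEL1 and 0.908 with BEM4. Among the 10 genes, XBP1 and SPG1 had the highest correlation, 0.992, and the paralogs RGI1 and RGI2 had 0.891 and SIP18 and GRE1 0.467, all over 8 arrays.

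The genes next to the 10 on their chromosomes were read after the values of the 10 had been seen. No neighbour overlapped one of them in the RefSeq annotation, and 16 of 20 neighbours passed the filter on low signals. In wild type 9 of the 16 were called lower and 1 higher, beside 17.6% and 32.3% of all genes, and in stb3-null 5 were lower and none higher, beside 11.6% and 28%. RRT13 beside RGI1 fell (-1.56 and -1.47), as did SGA1, a glucoamylase gene beside XBP1 (-1.5 and -1.27). ASI2 beside YGP1 fell (-1.20 and -0.63), whereas YGP1 had the higher signal after glucose. MOT2, the other neighbour of RGI1, was at 0.10 and 0.02, and MFA2 beside MPF1 at 0.02 and -0.13, without passing.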

How the data were processed

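The authors' deposited signals for the 8 arrays are on a log2 scale, a base read from the values, which run to 14.55. Per the submitters' processing notes the tool was MAS5, and no source used here gives the scaling between arrays. The 2% trimmed means of the antilog values spanned a 1.54-fold range, and no detection calls were used, so the number of arrays limits the precision. Values were used as deposited, with no pseudocount. Of 9275 probe sets, 6504 named 1 gene, 328 several and 2443 none; symbols came from the platform annotation and RefSeq (R64). Among 315 genes with several probe sets, the one with the highest mean stood for the gene. The 5343 genes with a mean antilog signal of at least 10% of the mean trimmed mean, a log2 signal of 5.80, were tested.

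Comparisons used limma 3.58.1 in R 4.3.3 with 1 mean per group over all 8 arrays, a trended empirical Bayes step (residual degrees of freedom 4, prior 5.56), two-sided p-values and Benjamini-Hochberg adjustment over all tested genes, checked on simulated data. Calls were made at an adjusted p below 0.05. An exact permutation test of 2 against 2 arrays cannot go below 0.333. The members, lists and tests were chosen with earlier results of these data known. All members were named, and of each list the 2 largest rises and 2 largest falls among called genes of each glucose response; for RGI1, RGI2, XBP1, YGP1 and SIP18 the 3 best-correlated other genes were named. SSA3, BCY1, HSP26, SPS100, CLN1 and the neighbours were chosen after their values were seen. The 18 repeats were 10 changes of processing and 8 fits that each left out 1 array.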

Additional observations from a re-analysis of the deposited data

Results flagged for a closer look

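For 2 of the 10 genes every array of one strain lay on one side of the other strain at 3 days and on the opposite side after glucose. This held for the values as deposited. After glucose the closest arrays of the strains were only 0.04 apart for SPG5 and 0.07 for XBP1. For SPG5 these were the replicate A arrays, with array medians of 7.63 in wild type and 7.68 in stb3-null, so median centring removes the gap. SPG5 was lower in stb3-null at 3 days by 0.52 on the log2 scale and higher after glucose by 0.46, so that its difference between responses was 0.98 (SE 0.47). XBP1 was lower by 0.56 at 3 days and higher by 0.40 after glucose, with a difference of 0.96 (SE 0.35). This difference was not tested for the 2 genes on their own, and the fit across all 5343 genes called none. Over all tested genes, 6.1% showed such an exchange of sides in either order, and 2.55% in the order of these 2 genes. With single arrays left out or other processing, the difference ran from 0.57 to 1.39 for SPG5 and from 0.69 to 1.23 for XBP1.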

How the results depend on the processing

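Of 370 recomputed strain differences of the 10 genes, 358 kept their direction and their side of the threshold, 10 turned sign and 2 came to pass. At 3 days the strains differed in 2 genes, in 1 with the filter at 40%, and in 1 to 168 with 1 array left out, the most without wild type 3 days replicate A. After glucose they differed in 1 gene, in 0 with the filter at 40%, in 4 with array weights, and in 1 to 56 with 1 array left out, the most without wild type glucose 10 min replicate A. The filter at 40% removed STB3 itself from both comparisons. The stb3-null response had 2113 calls, 3255 with array weights, 3284 in a fit of those groups alone and 915 to 2524 with 1 array left out, and the wild-type response 2223 to 2621. The difference between responses had 0 calls and 0 to 5 with 1 array left out. The SIP18 strain difference at 3 days, 0.04, became -0.035 after quantile normalisation and -0.008 after scaling to a common trimmed mean. With 1 array left out, strain differences at 3 days ran from -0.385 to 0.165 for SPG1, -0.14 to 0.30 for SPG4, -0.335 to 0.415 for SIP18 and -0.875 to 0.505 for GRE1. After glucose they ran from -0.155 to 1.305 for RGI1, -0.375 to 0.045 for RGI2 and -0.04 to 0.50 for YGP1. The cause of these changes was not tested. The labels do not say whether the replicate letters pair the arrays. The correlations of A minus B between groups lay between -0.183 and 0.224, which does not settle it. A replicate block gave 2, 1, 2661, 2093 and 0 calls in the 5 comparisons, and a crossed block at 3 days, added after seeing the data, gave 2. The 2 arrays a group and the lack of detection calls limit the precision.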
